A study of Mus musculus with 8 samples.

Results

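The miR-30 family is a group of microRNAs (miRs) with almost the same mature sequence. Here it was followed through the 7 miRs of the count table that bear the names mmu-miR-30a-5p, mmu-miR-30b-5p, mmu-miR-30c-5p, mmu-miR-30d-5p, mmu-miR-30e-5p, mmu-miR-30a-3p and mmu-miR-30e-3p (the species prefix is left out below). They were taken by name and make up 7 of the 1755 miRs of the table. The miRs had been sequenced from extracellular vesicles (EVs), the small membrane-bound particles that cells release, of whole muscle of male C57BL/6J mice bought at an age of 10 to 12 weeks. OXI-EV came from oxidative muscle (the soleus together with the red part of the gastrocnemius) and GLY-EV from glycolytic muscle (the quadriceps as a whole), with 4 libraries in each group. Muscle of 1 leg per animal, not pooled, was kept for 24 h in serum-free medium, and the EVs were taken from that medium by ultrafiltration and size exclusion chromatography. No allele or agent is named for either group. Since the tissue was whole muscle, vesicles of its vessels, nerves and blood cells could be in the preparations beside those of muscle fibres. A lower level in OXI-EV can mean fewer vesicles of one source or less of the miR in each vesicle, and these cannot be told apart.

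A mature miR guides an Argonaute protein to messenger RNAs, and the bases just after its 5′ end, the seed, decide most of the pairing. One hairpin can give a miR from each side, the 5p and the 3p arm. The miR-30 5p arms are abundant in muscle and heart and all share 1 seed, so they can pair with the same sites. Known targets of miR-30 are connective tissue growth factor in the rat heart, the autophagy protein beclin 1 in human cells and the Notch ligand Dll4 in human endothelial cells.

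The sequences below show how little separates the members, and therefore how much the counts of each rest on few bases. They are RefSeq mature sequences on build GRCm38.p6, 5′ to 3′, with the seed (bases 2 to 8) in capitals. Of the 7 members, 5 were matched to a sequence, and 2 (miR-30b-5p and miR-30d-5p) are named only. The list also holds miR-384-5p, an X-linked miR with the same seed, and the 3p arms of the 2 miR-30c hairpins.
miR-30a-5p: uGUAAACAuccucgacuggaag
miR-30e-5p: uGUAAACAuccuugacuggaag
miR-30c-5p: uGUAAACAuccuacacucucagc
miR-384-5p: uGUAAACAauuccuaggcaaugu
miR-30a-3p: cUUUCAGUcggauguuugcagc
miR-30e-3p: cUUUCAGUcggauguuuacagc
miR-30c-1-3p: cUGGGAGAggguuguuuacucc
miR-30c-2-3p: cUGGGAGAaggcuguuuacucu

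With positions counted from 1 at the 5′ end and the base of miR-30a first, miR-30e-5p differed from miR-30a-5p by C13U alone, and miR-30e-3p from miR-30a-3p by G18A alone. By the same count miR-30c-5p differed from miR-30a-5p by C13A, G14C, G18C, G19U and A20C, and it is 1 base longer. Reads that end early or carry an error at such a position could be counted for the wrong member, so the split of counts between miR-30a-5p and miR-30e-5p is uncertain to that extent. The 3p arms of miR-30a and miR-30e have another seed, UUUCAGU, and those of the miR-30c hairpins yet another, UGGGAGA, so the arms of 1 hairpin do not pair with the same sites.

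The hairpins of the members lie in 3 clusters. Mir30a (chr1:23272269-23272339, plus strand) and Mir30c-2 (chr1:23291701-23291784, plus strand, over an exon of the long non-coding RNA gene Gm27028) have 19361 bases between them. Mir30c-1 (chr4:120769534-120769622) and Mir30e (chr4:120772606-120772697) lie 2983 bases apart on the minus strand, both in an intron of Nfyc, which codes for a subunit of the transcription factor NF-Y. Mir30b and Mir30d form the remaining cluster, on chromosome 15. Because Mir30c-1 and Mir30c-2 give the same 5p arm, the count of miR-30c-5p cannot be divided between its clusters, and only the 3p arms tell them apart.

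The libraries held 348730 to 572106 miR counts in OXI-EV, against 587068 to 1004011 in GLY-EV, and mapped reads of 4151145 to 4867396 in OXI-EV, against 5179262 to 7197716 in GLY-EV. Levels below are counts per 1000000 mapped reads (CPM), and fold changes are on the log2 scale, OXI-EV minus GLY-EV. Replicate 4 had the fewest miR reads per count of each group, 3.14 in OXI-EV, against 2.63 in GLY-EV. It also had the most miR counts per 1000000 mapped reads of each group, 117538 in OXI-EV, against 193852 in GLY-EV. Of the 1569 miRs tested, OXI-EV replicate 4 stood clear above the other libraries of its group for 4.33%, and GLY-EV replicate 4 for 9.82%. OXI-EV replicate 2 did so for 5.61%. Fold changes and ratios of the 7 members that leaving out replicate 4 of a group moved by over 1.5 times are given with and without it.

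The 5p members as a sum were less abundant in OXI-EV. Their counts summed to 963, 1809, 1676 and 4202 in the OXI-EV libraries, against 6791, 7763, 3896 and 11433 in the GLY-EV libraries. As a share of all miR counts the sum was 0.483 ± 0.194% in OXI-EV, against 0.910 ± 0.205% in GLY-EV (SD, n = 4 each). The groups overlapped through OXI-EV replicate 4, at 0.734% (95% Wilson interval 0.713 to 0.757%), and GLY-EV replicate 3, at 0.664% (0.643 to 0.685%). These intervals, here and below, cover counting error only. With miR-30b-5p left out of the sum, the share was 0.438 ± 0.129% in OXI-EV, against 0.902 ± 0.201% in GLY-EV, and every OXI-EV library (at most 0.567%) lay below every GLY-EV library (at least 0.658%). Part of this scale is set by the muscle miRs miR-1a-3p and miR-206-3p. Relative to the miR counts without them, the 5p sum was 1.59 ± 0.696% in OXI-EV, against 2.26 ± 0.416% in GLY-EV, and the groups overlapped also when miR-30b-5p was left out. The sum over the members was not tested.

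Among all 1755 miRs, miR-30a-5p ranked 18 by its mean count and miR-30d-5p ranked 21, so these are the members with the most precise values. Counts of miR-30a-5p were 457, 960, 837 and 1782 in OXI-EV, against 3693, 4202, 2000 and 5836 in GLY-EV. Every OXI-EV library held fewer counts than every GLY-EV library. In CPM the level was 105, 231, 179 and 366 in OXI-EV, against 534, 584, 350 and 1127 in GLY-EV, and here OXI-EV replicate 4 passed GLY-EV replicate 3. The fitted difference of miR-30a-5p was -1.56 ± 0.46 (SE), with an adjusted p of 0.157 by edgeR's quasi-likelihood test.

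For miR-30d-5p, which has its own hairpin beside that of miR-30b, the counts were 386, 628, 604 and 969 in OXI-EV, against 2494, 2891, 1538 and 3719 in GLY-EV. In CPM it reached 88.7, 151, 129 and 199 in OXI-EV, against 360, 402, 269 and 718 in GLY-EV. The groups were apart on both scales. Its difference of -1.62 ± 0.41 had the smallest p among the members (unadjusted 0.00186, edgeR adjusted p 0.0811), which still missed the threshold of 0.05. Over the 8 libraries log2(CPM + 1) of miR-30d-5p and miR-30a-5p had a Pearson r of 0.99, a description of 8 libraries that share their depth.

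The member that differs from miR-30a-5p by a single base, miR-30e-5p, was less abundant and overlapped between groups. It had 73, 151, 145 and 363 counts in OXI-EV, against 359, 478, 222 and 912 in GLY-EV, or 39.7 ± 24.7 CPM in OXI-EV, against 83.3 ± 62.9 CPM in GLY-EV. Only OXI-EV replicate 4 lay above the lowest of the GLY-EV libraries. The difference was -1.07 ± 0.60 (edgeR adjusted p 0.413), and it was -0.40 without GLY-EV replicate 4 and -1.57 without OXI-EV replicate 4.

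The product of both miR-30c hairpins, miR-30c-5p, had 31, 49, 71 and 128 counts in OXI-EV, against 187, 158, 105 and 788 in GLY-EV. Its level was 15.1 ± 8.16 CPM in OXI-EV, against 54.9 ± 64.9 CPM in GLY-EV. The wide spread of the GLY-EV group came from replicate 4, at 152 CPM, while the other 3 lay between 18.4 and 27.0 CPM. With that library the difference was -1.86 ± 0.74 (edgeR adjusted p 0.275), and without it -0.57 (adjusted p 0.411).

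The member that went the other way was miR-30b-5p. It had 16, 21, 19 and 960 counts in OXI-EV, against 58, 34, 31 and 178 in GLY-EV. In CPM this was 3.68, 5.06, 4.07 and 197 in OXI-EV, against 8.38, 4.72, 5.43 and 34.4 in GLY-EV. A single library, OXI-EV replicate 4, thus stood far above all others, and GLY-EV replicate 4 was the second highest. The fitted difference was 1.99 ± 1.23 (edgeR adjusted p 0.454) with all libraries and -1.62 ± 0.75 (adjusted p 0.369) without OXI-EV replicate 4, so its direction was set by that library. Without GLY-EV replicate 4 it was 3.08.

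Both 3p members were lower in every OXI-EV library than in any GLY-EV library, in counts and in CPM. For miR-30a-3p the counts were 29, 96, 65 and 100 in OXI-EV, against 283, 297, 222 and 645 in GLY-EV, or 16.1 ± 7.37 CPM in OXI-EV, against 61.4 ± 42.1 CPM in GLY-EV. Its difference was -1.93 ± 0.58 (edgeR adjusted p 0.168), and -1.33 ± 0.46 (adjusted p 0.174) without GLY-EV replicate 4, at 125 CPM the highest library. The least abundant member, miR-30e-3p, had 3, 12, 16 and 18 counts in OXI-EV, against 45, 38, 27 and 110 in GLY-EV, and the difference was -1.80 ± 0.66 (adjusted p 0.263). Without GLY-EV replicate 4 it was -1.03 ± 0.53 (adjusted p 0.245). Its counts in OXI-EV were the fewest among the 7 members by their mean.

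**Figure D1:**
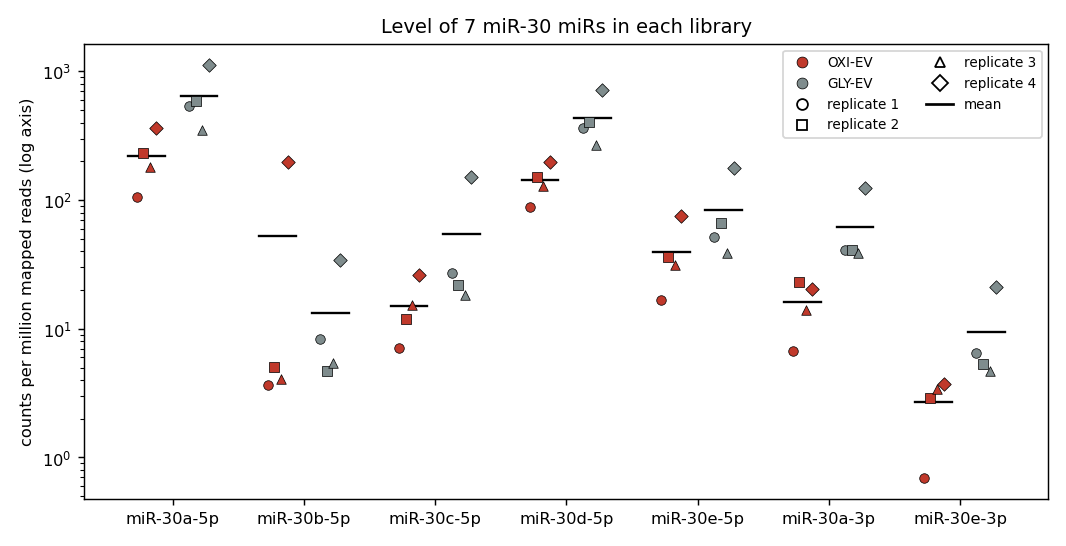
Level of the 7 miR-30 miRs in each library, in CPM on a log axis, with OXI-EV in red, GLY-EV in grey, 1 marker shape per replicate number and black bars for the group means (n = 4 each). The OXI-EV points lie below the GLY-EV points for miR-30d-5p, miR-30a-3p and miR-30e-3p, and OXI-EV replicate 4 of miR-30b-5p stands alone at 197 CPM.

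All 7 members passed the filter on low counts and were tested, and 0 of 7 passed an adjusted p of 0.05 with edgeR on the mapped-read scale, on which 1.85% of all 1569 miRs tested passed. At an unadjusted p under 0.05, 5 of 7 were lower in OXI-EV and 0 higher, against 5.42% of all miRs lower and 9.05% higher. Without GLY-EV replicate 4, 3 of 7 were lower, against 4.16% of all miRs lower and 19.9% higher, and without OXI-EV replicate 4 it was 7 of 7, against 5.87% lower. That background is mostly made of miRs with few counts. Of the 129 miRs tested with a mean count of at least 100, 50.4% were lower at an unadjusted p under 0.05, and 4 of the 6 members with such counts were. At an adjusted p under 0.05, 22.5% of these 129 miRs passed (21.7% as lower), and 0 of these 6 members did. DESeq2 on the same scale called 3 of the members lower (miR-30a-5p, miR-30d-5p and miR-30a-3p), against 3.76% of all 1569 miRs tested. That share also counts miRs without an adjusted p, such as miR-30b-5p and miR-30c-5p, for which DESeq2 gave no p at all. When edgeR was fitted on abundant miRs alone, the same 3 members passed as lower out of 6, against 42.3% of the miRs in that fit.

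The scale changed which members passed. With TMM scaling, which takes most miRs as equal between the groups, 4 of 7 members fell in OXI-EV with edgeR, against 5.42% of all miRs tested and 51.2% of the 129 abundant ones. These were miR-30a-5p (-2.05 ± 0.37, adjusted p 0.00836), miR-30d-5p (-2.10 ± 0.34, 0.00422), miR-30a-3p (-2.34 ± 0.38, 0.00461) and miR-30e-3p (-2.11 ± 0.45, 0.0217). Of the 6 abundant members 3 passed, a share close to that of all abundant miRs. Scaled to the total miR count, 3 members fell (miR-30a-5p, miR-30d-5p and miR-30a-3p), against 3.06% of all miRs tested. The median log2 fold change of the 7 members was -1.62 on the mapped-read scale, where it was 0.48 over all miRs tested and -1.12 over the abundant ones. With TMM it was -2.05, against 0.09 and -1.62. Scaled to total miR counts it was -1.11, against 0.98 and -0.72. Scaled to the miR total with miR-206-3p and miR-1a-3p taken out it was -0.70, against 1.36 and -0.32, and on that scale the difference of miR-30e-5p was -0.11 (edgeR adjusted p 0.818). On each of these 4 scales 6 members were negative and 1, miR-30b-5p, was positive.

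Groups that do not overlap were likewise frequent among abundant miRs. In counts 4 of 7 members had every OXI-EV library below every GLY-EV library, against 6.82% of all miRs tested and 52.7% of the abundant ones. In CPM 3 of 7 did, against 4.53% and 44.2%. Both counts of members include miR-30e-3p, which is not among the abundant miRs. Of the 6 abundant members 2 did in CPM. The members' counts lie near the shares among abundant miRs, and are not read here as particular to the miR-30 family.

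**Figure D2:**
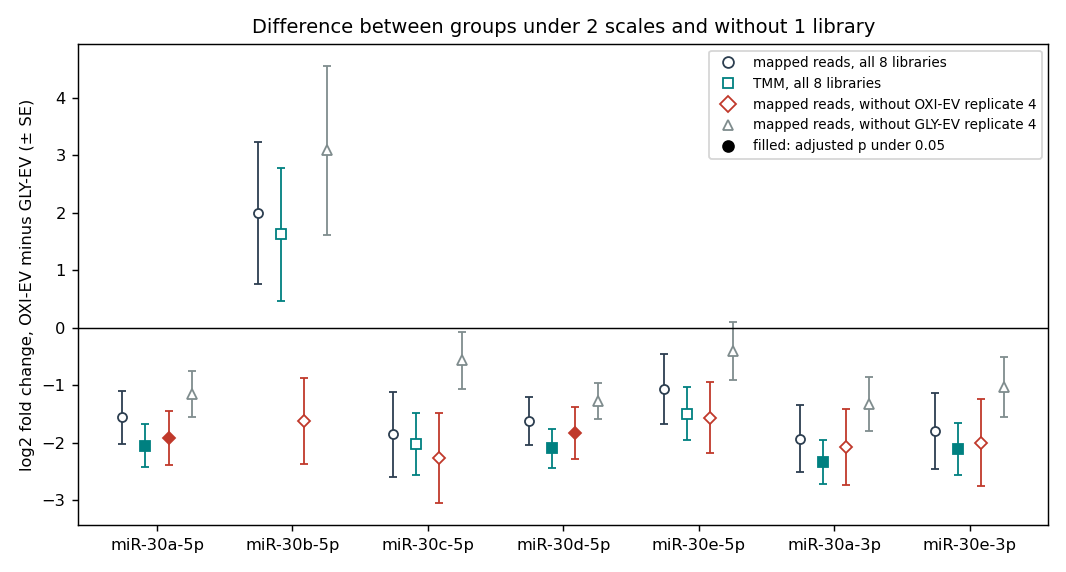
Log2 fold change of each member, OXI-EV minus GLY-EV, with its SE, from edgeR on the mapped-read scale (all 8 libraries, and without replicate 4 of either group) and with TMM scaling, where filled markers have an adjusted p under 0.05. The estimate of miR-30b-5p is above 0 except without OXI-EV replicate 4, at -1.62, while the other 6 stay below 0 in all 4 fits.

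Within the 5p sum the order of the members was much the same in both groups. The share of miR-30a-5p was 48.2 ± 4.50% in OXI-EV, against 52.7 ± 1.78% in GLY-EV, and that of miR-30d-5p 33.5 ± 7.31% in OXI-EV, against 36.5 ± 2.90% in GLY-EV. These 2 members made up most of the sum in every library. The share of miR-30e-5p was 8.30 ± 0.503% in OXI-EV, against 6.28 ± 1.19% in GLY-EV, with 1 overlapping library, GLY-EV replicate 4 at 7.98%. For miR-30c-5p it was 3.30 ± 0.658% in OXI-EV, against 3.59 ± 2.22% in GLY-EV, where replicate 4 reached 6.89% (Wilson interval 6.44 to 7.37%). The largest departure was that of miR-30b-5p, which made up 22.8% (21.6 to 24.1%) of the 5p sum in OXI-EV replicate 4. OXI-EV replicates 1 to 3 had shares of 1.13 to 1.66%, and GLY-EV libraries of 0.438 to 1.56%. Shares of 1 sum are not independent, and in the same library miR-30d-5p had its lowest share, 23.1% (21.8 to 24.4%).

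**Figure D3:**
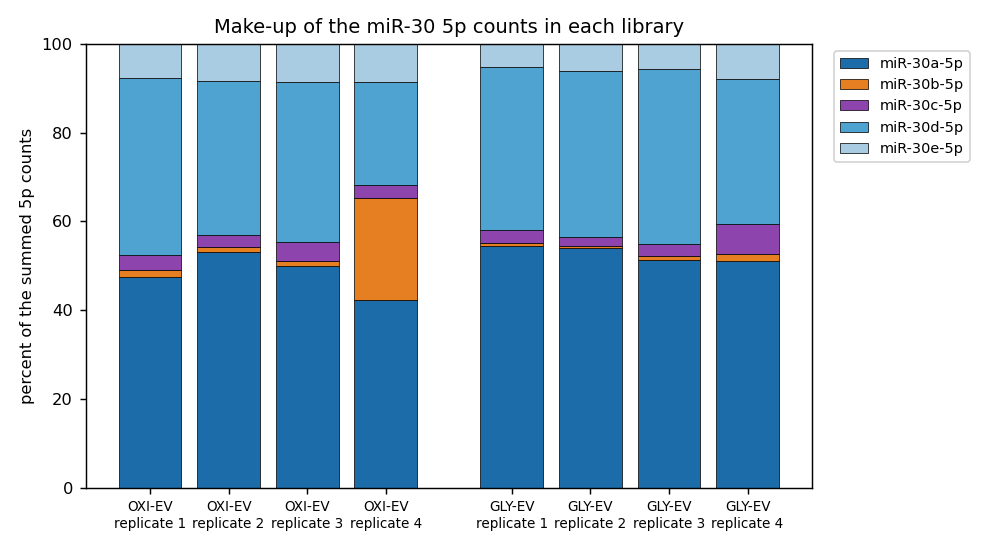
Make-up of the summed miR-30 5p counts in each library, as stacked bars in percent, with the 4 OXI-EV libraries left of the 4 GLY-EV libraries. miR-30a-5p and miR-30d-5p fill most of each bar, and miR-30b-5p is a thin band except in OXI-EV replicate 4, where it takes 22.8%.

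Ratios of counts within a library do not depend on its depth, and 3 were set side by side. Each was tested over the libraries by an exact permutation (two-sided), which cannot give a p below 0.0286. miR-30a-5p over miR-30e-5p was 6.26, 6.36, 5.77 and 4.91 in OXI-EV, against 10.3, 8.79, 9.01 and 6.40 in GLY-EV. Every OXI-EV library lay below every GLY-EV library, although the highest OXI-EV value and the lowest GLY-EV value were close. The log2 difference was -0.55, with the smallest exact p the design allows, 0.0286, and 0.0857 after Benjamini-Hochberg adjustment over the 3 ratios, so it did not pass.

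Within the Mir30b and Mir30d cluster, miR-30d-5p over miR-30b-5p was 24.1, 29.9, 31.8 and 1.01 in OXI-EV, against 43.0, 85.0, 49.6 and 20.9 in GLY-EV. In OXI-EV replicate 4 the members of this cluster had nearly the same count. The log2 difference was -1.84 (exact p 0.143, adjusted 0.214), and -0.64 without that library. The sum of miR-30a-5p, miR-30d-5p and miR-30e-5p over that of miR-30b-5p and miR-30c-5p, which sets one sequence subgroup against the other, had a log2 difference of -0.92 (exact p 0.371, also after adjustment), and -0.21 without OXI-EV replicate 4.

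The arm ratio, 5p over 3p, asks whether the sides of 1 hairpin were present in the same proportion. For miR-30a it was 15.8, 10.0, 12.9 and 17.8 in OXI-EV, against 13.0, 14.1, 9.01 and 9.05 in GLY-EV. The groups overlapped, and the log2 difference was 0.31 ± 0.41 (SE), with an adjusted p of 0.831 by limma over 511 hairpins, of which 0.978% passed. It was 0.18 without OXI-EV replicate 4 and 0.21 without GLY-EV replicate 4. For miR-30e it was 24.3, 12.6, 9.06 and 20.2 in OXI-EV, against 7.98, 12.6, 8.22 and 8.29 in GLY-EV. The highest of these, in OXI-EV replicate 1, rests on 3 counts of the 3p arm. Its log2 difference was 0.69 ± 0.45 (limma adjusted p 0.550). The 5p arm was the main one in all 8 libraries for both hairpins.

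**Figure D4:**
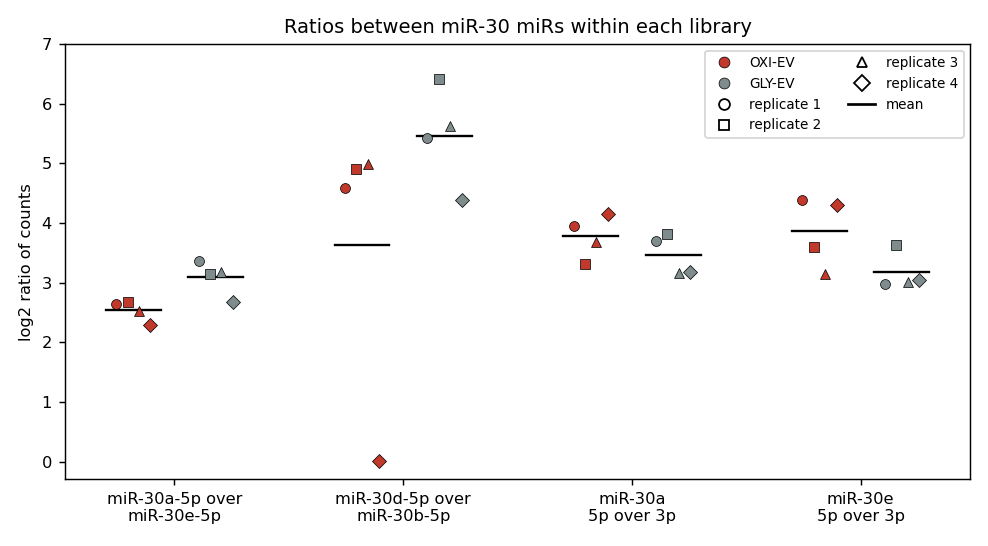
Log2 ratios of counts within each library for miR-30a-5p over miR-30e-5p, miR-30d-5p over miR-30b-5p, and the 5p over 3p arms of miR-30a and miR-30e, with OXI-EV in red left of GLY-EV in grey, 1 marker shape per replicate number and black bars for group means (n = 4 each). The groups are apart only for the first ratio, and OXI-EV replicate 4 lies at 0.01 for the second.

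The other miR-30 miRs of the table are 3p arms and miR-30f, of the hairpin Mir30f on the plus strand of chromosome 4. The mature miR-30f (chr4:120772621-120772642) lies within the span of the Mir30e hairpin, on the opposite strand. Its seed is UAAACAU, which is not that of the 5p members. None of these other miR-30 miRs passed the test on the mapped-read scale, and their estimates lay around the median of all miRs tested, 0.48. Their log2 fold changes were 0.92 for miR-30b-3p, 0.33 for miR-30d-3p, 0.36 for miR-30c-1-3p, 0.15 for miR-30c-2-3p and 0.84 for miR-30f, and those of miR-384-5p and miR-384-3p were 0.60 and 0.33, with edgeR adjusted p-values between 0.443 and 0.911. With TMM scaling 3 of these 7 were below 0, miR-30c-2-3p at -0.33, miR-30d-3p at -0.23 and miR-384-3p at -0.09. Most of these miRs had few counts. miR-30c-2-3p, from the hairpin next to that of miR-30a, had 52, 156, 52 and 78 counts in OXI-EV, against 106, 96, 68 and 148 in GLY-EV. In OXI-EV replicates 1 and 2 it was more abundant than miR-30c-5p, the opposite arm.

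The library with high miR-30b-5p was also the highest for the 3p arms of the same cluster. miR-30b-3p had 16, 27, 31 and 98 counts in OXI-EV, against 30, 20, 26 and 41 in GLY-EV. miR-30d-3p had 1, 5, 7 and 39 counts in OXI-EV, against 10, 14, 9 and 20 in GLY-EV. Both were highest in OXI-EV replicate 4, whereas miR-30d-5p of that library, at 199 CPM, was below every GLY-EV library. The arm ratio of miR-30b was 1.00, 0.778, 0.613 and 9.80 in OXI-EV, against 1.93, 1.70, 1.19 and 4.34 in GLY-EV (limma adjusted p 0.899). For miR-30d it was 386, 126, 86.3 and 24.8 in OXI-EV, against 249, 207, 171 and 186 in GLY-EV (adjusted p 0.495). Replicate 4 was thus at one end of its OXI-EV group for both hairpins, with the highest ratio for miR-30b and the lowest for miR-30d.

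The miRs whose log2(CPM + 1) was most like that of the 5p sum, out of 124 abundant candidates over the 8 libraries, were miR-126a-3p (Pearson r 0.99), miR-152-3p (0.98), and miR-29c-3p, miR-29a-3p and miR-151-3p (0.97 each). miR-126a-3p is a miR of endothelial cells, and miR-29a and miR-29c repress collagen genes. The muscle miR miR-1a-3p stood at place 55 (0.86) and miR-206-3p at place 121 (-0.62). These correlations are descriptions over libraries that also share depth and group. miR-126a-3p was at 91.6 ± 49.9 CPM in OXI-EV, against 349 ± 209 CPM in GLY-EV, a difference of -1.93 (edgeR adjusted p 0.103).

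Markers of vessel cells were at lower summed levels in OXI-EV as well. Both endothelial markers (miR-126a-3p and miR-126a-5p) were detected in every library, with a summed level of 53.1 to 198 CPM in OXI-EV, against 201 to 772 CPM in GLY-EV, and 0 of 2 passed the test. Both smooth muscle markers (miR-143-3p and miR-145a-5p) were detected in every library too, at 265 to 503 CPM in OXI-EV, against 782 to 2031 CPM in GLY-EV, and 1 of 2 fell. The summed levels of both lists were lower in every OXI-EV library than in any GLY-EV library. The same held for miR-126a-3p and miR-143-3p singly, the larger parts of these sums. Both other markers overlapped between groups, miR-126a-5p at 8.97 to 37.4 CPM in OXI-EV, against 24.9 to 118 CPM in GLY-EV. For miR-145a-5p it was 8.35 to 18.1 CPM in OXI-EV, against 11.4 to 124 CPM in GLY-EV. Of all abundant miRs tested 44.2% had every OXI-EV library below every GLY-EV library in CPM. The 7 muscle fibre markers summed to 52245 to 84652 CPM in OXI-EV, against 65947 to 124585 CPM in GLY-EV, of which 5 passed the test as lower and 1 as higher, with none at 0 throughout. Leukocyte markers summed to 16.3 to 38.8 CPM in OXI-EV, against 21.9 to 97.7 CPM in GLY-EV, and erythroid markers to 3.45 to 63.6 CPM in OXI-EV, against 4.58 to 26.8 CPM in GLY-EV. The part of these cell types in the levels of the miR-30 family was not tested.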

How the data were processed

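Small RNA of EVs was sequenced in 4 OXI-EV and 4 GLY-EV libraries, from 3 to 8 ng of RNA each. The authors deposited raw counts, 1 whole number for each miR or piRNA and library, made with cutadapt and STAR on GRCm38 according to the submitters' processing notes. Their versions, and which tool counted, were not given in the sources used here. Counts lie below the miR reads in each library, so they were taken here as molecules, which is an inference. The authors' log2 fold changes, ratios (fold changes), p-values and FDR, also deposited, come from their own comparison and were not used. Reads per class, as deposited by the authors, gave mapped reads.

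The 72 piRNAs were left out. The filter asked for 10 counts or more in 4 or more of 8 libraries, and miRs that passed were tested with edgeR 4.0.16 (quasi-likelihood, R 4.3.3), with mapped reads as library size and no further factor. Since counts taken as molecules are divided by reads, libraries with few miR reads per count get higher values. P-values were adjusted by Benjamini-Hochberg over the tested miRs and called under 0.05. The SE is the log2 fold change over the square root of the test statistic. Arm ratios, with 0.5 added to each count, were tested with limma 3.58.1. DESeq2 1.42.0, limma-voom, other scales, filters, blocks and leaving out each library were alternatives. A library stood apart where its gap to the next, divided by the range of its group, exceeded Dixon's 95% critical value. Tests were run on simulated data first. No libraries were duplicates (chi-square per degree of freedom at least 10.8 between libraries of a group). No source ties replicates to separate cultures beyond 1 leg per animal, so p-values measure the spread between these libraries. Other tables used Python 3.11.15, and hairpins were placed with RefSeq and GENCODE M21.

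The miRs named are the 7 members, the other miR-30 miRs, miRs with the same seed, and the 5 most like the 5p sum. miR-384-3p was added after its values were seen. Neural, liver and fibroblast markers were also summed, at 1.38 to 138, 1.15 to 7.71 and 2.53 to 5.57 CPM in OXI-EV and 2.08 to 6.50, 1.95 to 4.44 and 4.17 to 15.4 CPM in GLY-EV. Of the 2 fibroblast markers, miR-199a-3p was not matched by name, so that sum is miR-214-3p alone. The paper lists a joint entry, miR-199a/199b-3p, among its most different miRs, with fewer counts in OXI-EV. That entry is not in the sum, which therefore does not give the level of fibroblast miRs. The members and lists were chosen with earlier results of these data known.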

Additional observations from a re-analysis of the deposited data

Results flagged for a closer look

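Of 50 groups of 4 libraries examined, 11 held a library whose gap to the nearest other library was too wide a part of the group's range by Dixon's 95% critical value. For independent, normally distributed values this would be about 1 in 20. The 50 groups are levels, shares and ratios of the same counts, so the 11 are not independent and are not read as an excess. By the same criterion 12.6% of all miRs tested had such a library in OXI-EV and 11.7% in GLY-EV. All but 1 of the 11 were in replicate 4 of either group. In OXI-EV replicate 4, miR-30b-5p was high at 197 CPM and at 22.8% of the 5p sum, and miR-30d-3p was high at 8.01 CPM. In the same library the log2 ratio of miR-30d-5p over miR-30b-5p was low at 0.013, and so was that of miR-30a-5p, miR-30d-5p and miR-30e-5p over miR-30b-5p and miR-30c-5p, at 1.52. In GLY-EV replicate 4, miR-30b-5p was high at 34.4 CPM, miR-30c-5p at 152 CPM and 6.89% of the 5p sum, miR-30a-3p at 125 CPM and miR-30e-3p at 21.2 CPM. In GLY-EV replicate 2 the log2 arm ratio of miR-30e was high at 3.64. Both replicate 4 libraries had the fewest miR reads per count of their group, and the part of this in their levels was not tested.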

How the results depend on the processing

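The number of members past the threshold depended on the processing. It was 0 with edgeR on the mapped-read scale, where 1.85% of all miRs tested and 22.5% of the abundant ones were called. It was 4 with TMM, where 5.42% of all were called lower, and 4 with DESeq2's size factors. Scaled to total miR counts it was 3, where 3.06% of all were called lower and 12% higher. It was 2 when miR-206-3p and miR-1a-3p were taken out of that total. It was 3 of 6 among miRs with a mean count of at least 100, where 42.3% of the 130 miRs tested were called lower. It was 3 with DESeq2 on mapped reads, where 3.76% of all miRs tested were called lower, and 1 with limma-voom. It ranged from 0 to 2 with 1 library left out. The 2 (miR-30a-5p, edgeR adjusted p 0.0418, and miR-30d-5p, 0.0455) came without OXI-EV replicate 4, where 2.23% of all miRs tested were called lower. In alternatives chosen after seeing the data, TMM called 4 without OXI-EV replicate 4 and 3 without GLY-EV replicate 4. Each call was lower in OXI-EV, and the cause of the other changes was not tested. Counts without a share over all miRs beside them are not read as a result about the members. The log2 fold change of miR-30b-5p reversed without OXI-EV replicate 4, to -1.62 with mapped reads as the scale and -1.66 with TMM, and was 3.08 without GLY-EV replicate 4. With the replicate number as a block, 2 members passed (miR-30a-5p and miR-30d-5p, adjusted p 0.0122 each) and 42 miRs in all, against 29 without the block. With the number in the sample descriptions as a block instead, 0 passed (miR-30a-5p 0.0696, miR-30d-5p 0.0720). The numbers were not taken as pairs, since the deviations of same-numbered libraries correlated at 0.14, -0.08, -0.06 and 0.03 and 3 of 8 libraries correlated best with their own number. So few values cannot show that the libraries are unpaired. Replicate 2 bears the number 3 in OXI-EV and 2 in GLY-EV in the sample descriptions. The paper compared EV release by paired t-tests, and no label ties the libraries to animals. The log2 difference of miR-30a-5p over miR-30e-5p ranged from -0.69 to -0.46 with 1 library left out, where 3 libraries against 4 allow no exact p below 0.0571. Depth limits miR-30e-3p, with 3 to 18 counts in OXI-EV.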
